A study of Mus musculus with 8 samples.

Results

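The endothelin system was followed in the retina of wild-type (WT) and rd10 mice through 7 genes: the ligands Edn1, Edn2 and Edn3, the receptors Ednra and Ednrb, and the converting enzymes Ece1 and Ece2. They were found by matching the symbols to the mouse Ensembl identifiers of the count table, which held 57010 identifiers, and all 7 passed the filter on low counts that left 20457 genes for testing. The family was chosen by the values of Edn2, which had been seen to be lower in rd10 retina at P15 and higher afterwards, so the Edn2 values are given as a description without a test, and tests are confined to the other 6 members. The samples were whole retina of WT mice at postnatal day 15 (P15) and of rd10 mice at P15, P18 and P21. There were 2 poly(A) RNA-seq libraries per group, 8 libraries in all. Each sample is labelled as retina and is called a retina below. The rd10 mice are homozygous for a missense mutation of Pde6b, the rod phosphodiesterase subunit, and per the study's methods the controls were WT littermates. No WT retina was sequenced at P18 or P21, so that age and genotype change together in those comparisons and cannot be told apart. The labels do not say whether the 2 retinas of a group came from separate animals, and p-values then measure only the spread between these libraries.

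Endothelins are short vasoactive peptides that are cut from longer precursors, first by proprotein convertases and then by the endothelin-converting enzymes, membrane metalloproteases that release the mature peptide. The peptides act on a pair of G protein-coupled receptors: the type A receptor, known from vascular smooth muscle and pericytes, where it drives contraction, and the type B receptor, carried by endothelium, astrocytes and Muller glia. In injured retina Edn2 is known as a signal made by stressed photoreceptors, which acts on the type B receptor of Muller glia, whereas Edn1 is best known from vascular endothelium.

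The 3 ligands are shown here in the stretch of coding sequence that encodes the mature peptide, because these bases show how closely related the transcripts are that the read counts had to separate. In GENCODE M21 (GRCm38) each stretch lies on the plus strand in exon 2 of 5, at chr13:42303649-42303711 for Edn1, chr4:120161951-120162013 for Edn2 and chr2:174761749-174761811 for Edn3. Capitals mark the codons of cysteine and tryptophan.
Edn1: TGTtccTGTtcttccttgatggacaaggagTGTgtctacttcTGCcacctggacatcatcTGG
Edn2: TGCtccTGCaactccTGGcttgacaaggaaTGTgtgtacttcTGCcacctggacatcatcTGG
Edn3: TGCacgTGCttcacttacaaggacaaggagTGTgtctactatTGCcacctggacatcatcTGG
All 3 stretches hold 4 cysteine codons at the same positions, which form the disulfide bridges of the peptide, and end on the tryptophan codon where the converting enzymes cut. Edn2 alone among them carries a further tryptophan codon between the cysteine codons. Of the 63 bases, 53 were identical between Edn1 and Edn2, 50 between Edn1 and Edn3 and 48 between Edn2 and Edn3, and 18, 15 and 15 of the 21 encoded residues were the same. The whole coding sequences, of 202 codons in Edn1, 175 in Edn2 and 214 in Edn3, shared no run of 32 bases with each other.

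Before the values of the members, the libraries are described once. Total counts lay between 28076947 and 33724562. Rod markers summed over 7 genes were between 36777 and 45951 CPM (counts scaled to library size, TMM-normalized) in the WT retinas, between 26862 and 28404 at rd10 P15 and between 17607 and 24461 at the later ages, and in bulk tissue fewer rods and less RNA per rod cannot be told apart. Pde6b itself is transcribed from the rd10 allele and does not check the genotype. Eif2s3y, Kdm5d, Uty and Ddx3y, 4 genes of the Y chromosome, had between 5530 and 7193 counts in 4 libraries (both rd10 P15 libraries and replicate 1 of rd10 P18 and of rd10 P21) and at most 19 in the other 4, so that sex and genotype differ together between WT P15 and rd10 P15. The 2 rd10 P18 libraries stood furthest apart, with a chi-square of 103 per gene between them against 24.5 to 39.4 in the other groups. Values that rest on them are therefore given per library.

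Edn2 (ENSMUSG00000028635, chr4:120161206-120167360, plus strand) was the member whose level differed most between the groups. The 2 WT P15 retinas held 1.85 and 4.44 CPM (50 and 137 counts, TMM-normalized). The rd10 P15 retinas held 0.19 and 0.14 CPM, from 6 and 4 counts. At P18 the level was 34.4 and 28.01 CPM, and at P21 it was 27.5 and 21.4 CPM. No groups overlapped, and the order of the levels from the lowest was rd10 P15, WT P15, P21 and P18, the last pair lying close together with 27.5 CPM in the higher P21 retina and 28.01 CPM in the lower P18 retina. The ratio of an rd10 P15 retina to a WT P15 retina was 0.0318 to 0.103 over the 4 library pairs. The P18 retinas were 6.31 to 18.6 times and the P21 retinas 4.83 to 14.9 times the WT P15 retinas, with fitted log2 differences of 3.30 and 2.95. Against rd10 P15 the ratios were 147 to 244 at P18 and 112 to 195 at P21. These last ratios divide by 6 and 4 counts, for which the exact 95% Poisson intervals were 0.0701 to 0.416 CPM and 0.0384 to 0.361 CPM and cover counting error only. The WT P15 replicates differed 2.40-fold from each other, which widens the range of the ratios to WT.

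**Figure D1:**
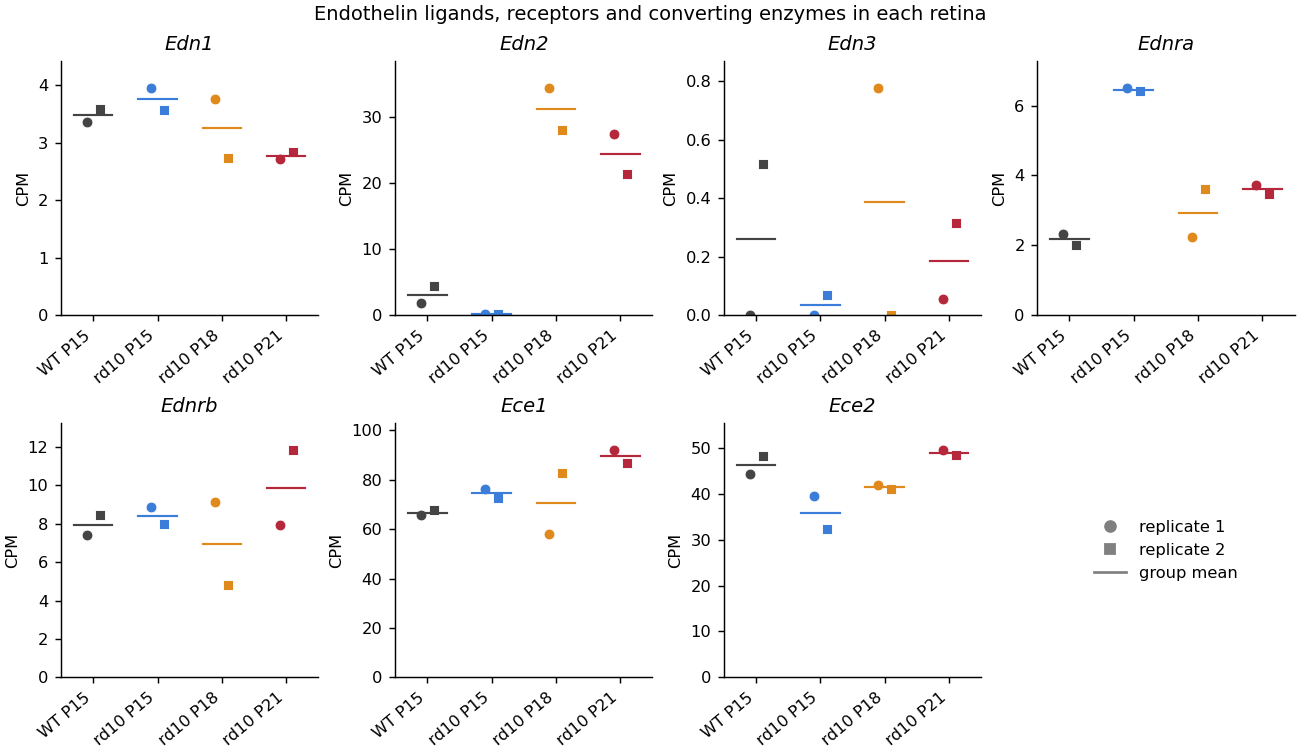
CPM of the 7 members in each retina by group (circle, replicate 1; square, replicate 2; line, group mean; every axis starts at 0). Edn2 lies at 0.14 and 0.19 CPM in rd10 P15 and between 21.4 and 34.4 CPM at P18 and P21, and Ednra is highest in both rd10 P15 retinas.

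The sequence just before the Edn2 start site is shown because the level of its transcript differed over such a range. The 250 bases upstream (RefSeq, GRCm38.p6, chr4:120160956-120161205, plus strand) were searched on both strands for 4 motifs: AP-1 (TGANTCA), STAT (TTCNNNGAA), the hypoxia response element core (ACGTG or GCGTG) and the photoreceptor factor CRX (TAATCC). Capitals mark the match that was found.
Edn2 upstream: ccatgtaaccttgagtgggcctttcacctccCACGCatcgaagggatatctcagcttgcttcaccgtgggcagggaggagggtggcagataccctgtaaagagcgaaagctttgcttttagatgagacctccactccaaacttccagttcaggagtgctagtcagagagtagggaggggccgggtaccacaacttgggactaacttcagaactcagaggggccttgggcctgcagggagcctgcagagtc
The match was to the hypoxia response element core, read on the minus strand, and its first base lies 219 bases before the start site. Such letters are common, as 38.6% of 32851 promoter windows hold them in the 250 bases before the start, the stretch that was searched. No AP-1, STAT or CRX letters were found in the Edn2 window, against 6.7%, 7.0% and 6.3% of all windows. Among the other members Ednrb, Ece1 (in 3 of its 4 windows) and Ece2 held the hypoxia letters and Ednrb held the CRX letters, while the Edn1, Edn3 and Ednra windows held none of the 4. A match is a description of letters and not evidence of binding.

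Edn1 (ENSMUSG00000021367, chr13:42301476-42307990, plus strand), the endothelial ligand, lay between 2.71 and 3.95 CPM in all retinas. The WT retinas had 3.36 and 3.59 CPM, and the rd10 retinas had 3.95 and 3.56 at P15, 3.76 and 2.74 at P18 and 2.71 and 2.83 at P21. Both P21 values lay below both WT values, by a log2 difference of -0.33 ± 0.35 (SE), and edgeR's quasi-likelihood test gave an adjusted p of 0.81. In the other 5 comparisons its adjusted p was 0.66 to 0.94.

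Edn3 (ENSMUSG00000027524, chr2:174760619-174784042, plus strand), the ligand known for its role in the neural crest, was close to the detection limit. It had 0 counts in WT P15 replicate 1, rd10 P15 replicate 1 and rd10 P18 replicate 2, where 3 counts would be 0.111, 0.0955 and 0.0945 CPM. Counts in the other retinas were 16 for WT, and for rd10 they were 2 at P15, 26 at P18, and 2 and 9 at P21. The highest retina was at 0.78 CPM. All 4 groups overlapped, no fold is given at this depth, and the adjusted p of the 6 comparisons lay between 0.64 and 0.98.

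Because the ligands differ in length, they were set against each other as CPM per kb of exon. Edn2 made up 44.6% and 62.7% of the summed ligand level in the WT P15 retinas. In the rd10 P15 retinas its share was 6.61% and 5.42%, and Edn1 made up 93.4% and 93.6%. At P18 and P21 Edn2 made up between 91.3% and 93.7%, and Edn1 between 6.27% and 8.24%. These shares follow from the Edn2 values that chose the family and are a description. Edn1 itself ranged only from 1.27 to 1.84 CPM per kb over the 8 retinas.

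**Figure D2:**
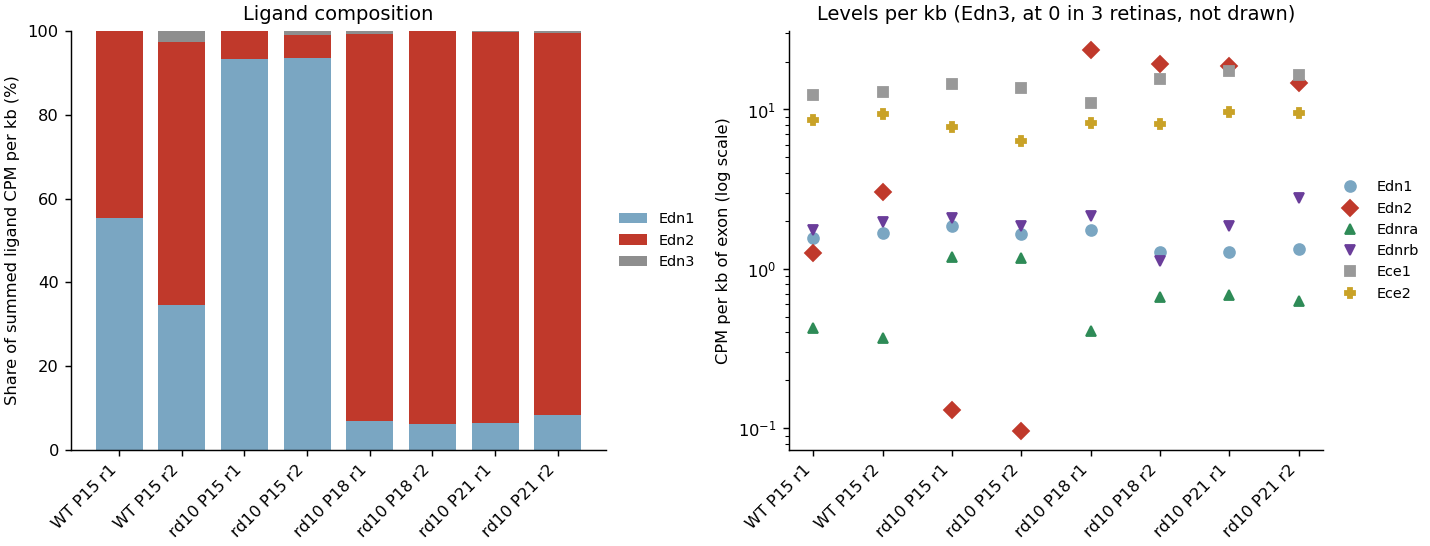
Left, share of each ligand in the summed ligand CPM per kb of exon in each retina (r1 and r2, replicates 1 and 2). Right, CPM per kb of 6 members on a log axis: Edn2 lies below every other gene drawn in rd10 P15 and above both receptors in all retinas at P18 and P21.

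Ednra (ENSMUSG00000031616, chr8:77663031-77724464, minus strand), the type A receptor, was higher in both rd10 P15 retinas than in any other retina. It had 2.33 and 2.01 CPM in the WT retinas, 6.49 and 6.42 in the rd10 retinas at P15, 2.24 and 3.62 at P18, and 3.74 and 3.46 at P21. The replicates of rd10 P15 differed by 1.01-fold and those of rd10 P18 by 1.62-fold, and 2 libraries measure the spread of a group poorly. The log2 difference between rd10 P15 and WT P15 was 1.57 ± 0.36 (SE, n = 2 per group), and its adjusted p was 0.12 by edgeR over all 20457 genes, which misses the threshold, and 0.019 by DESeq2. With single libraries left out of the fit, this log2 difference ran from 1.47 to 1.68, and whether edgeR called it depended on the library. A fit with a term for sex gave a log2 difference of 1.86 and an edgeR adjusted p of 0.36. The rd10 groups of P18 and P21 each held 1 library with and 1 without Y-linked counts, and their Ednra values were, in that order, 2.24 and 3.62 CPM for the P18 retinas and 3.74 and 3.46 CPM for the P21 retinas.

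At P18 and P21 Ednra lay closer to WT P15. The log2 difference from WT P15 was 0.43 ± 0.36 at P18 (edgeR, adjusted p 0.58) and 0.73 ± 0.36 at P21 (adjusted p 0.49). Against rd10 P15, both later groups lay below without overlap, by log2 differences of -1.14 ± 0.36 and -0.84 ± 0.35 (edgeR, adjusted p 0.24 and 0.37). The P18 replicates straddled the range, replicate 1 being among the WT values and replicate 2 beside the P21 values.

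Summed markers of cell types that carry the type A receptor were also higher at rd10 P15. The 7 markers of pericytes and vascular smooth muscle (Pdgfrb, Rgs5, Acta2, Myh11, Tagln, Cspg4 and Kcnj8) summed to 116 and 119 CPM in the WT retinas and to 211 and 235 in the P15 retinas. For 5 of the 7, neither rd10 P15 value overlapped the WT values, and all were above, beside 49.7% of all genes not overlapping in either direction. The other 2, Tagln and Myh11, overlapped, with group means of 2.91 and 1.27 CPM in WT and 1.68 and 1.31 CPM in rd10 P15. At P18 the sum was 147 and 142 CPM and at P21 it was 129 and 135 CPM, and none of the 7 markers was at 0 in all libraries. Rgs5 alone made up 70.1% to 82.0% of the sum, and the other 6 summed to 28.1 and 27.8 CPM in the WT retinas, 37.9 and 44.9 in the rd10 retinas at P15, 29.3 and 32.7 at P18, and 38.5 and 32.3 at P21, so that without Rgs5 the P15 and P21 retinas overlapped. Relative to the WT P15 mean the rd10 P15 retinas stood at 2.99 and 2.96 for Ednra and at 1.80 and 2.00 for the sum of all 7 markers.

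Other tissue around the retina also differed at rd10 P15. The 8 markers of melanocytes and retinal pigment epithelium summed to 29.9 and 123 CPM in the WT retinas and to 214 and 250 in the P15 retinas. At P18 and P21 the sum was 23.7 to 39.2 CPM. Of the 8, 6 lay above WT without overlap at rd10 P15, where 49.7% of all genes did not overlap in either direction. The 7 endothelial markers summed to 231 and 299 CPM in the WT retinas, 370 and 322 in the rd10 retinas at P15, 253 and 308 at P18, and 484 and 385 at P21. Of the 7, 5 lay above WT without overlap at rd10 P15, and likewise 5 at each later age. Of all genes, 49.7%, 47.0% and 49.2% did not overlap in either direction at P15, P18 and P21. Kdr made up 66.9% to 88.5% of this sum. The other 6 summed to 38.0 and 34.3 CPM in the WT retinas, 91.6 and 107 in the rd10 retinas at P15, 71.4 and 62.9 at P18, and 66.1 and 64.0 at P21, and were thus highest at rd10 P15, like Ednra. By group means, 6 of the 7 markers were higher at rd10 P15 than at P21, Kdr being the exception. The part of these cells in the Ednra values was not tested.

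**Figure D3:**
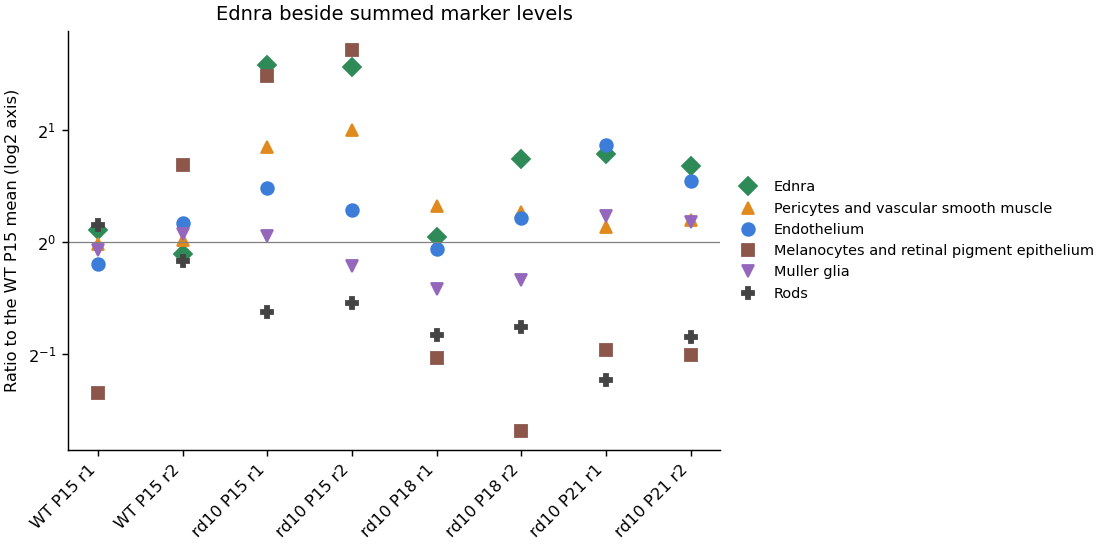
Ednra and the summed CPM of 5 marker lists in each retina, each divided by its WT P15 mean (log2 axis; grey line, a ratio of 1). In both rd10 P15 retinas Ednra (2.99 and 2.96), the pericyte and smooth muscle sum (1.80 and 2.00) and the melanocyte and pigment epithelium sum (2.80 and 3.27) lie above 1. The endothelial sum is mostly Kdr.

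Ednrb (ENSMUSG00000022122, chr14:103814625-103844402, minus strand), the type B receptor, showed no separation of the groups. Its values were 7.43 and 8.45 CPM in the WT retinas, 8.85 and 7.97 in the rd10 retinas at P15, 9.13 and 4.79 at P18, and 7.91 and 11.8 at P21. The lowest and the second highest of the 8 retinas were both at P18, where the replicates differed 1.91-fold. The log2 differences from WT P15 were 0.08 ± 0.35, -0.19 ± 0.35 and 0.31 ± 0.35 at P15, P18 and P21, with edgeR adjusted p of 0.97, 0.84 and 0.82. The 6 Muller glia markers summed to 3478 and 3834 CPM in the WT retinas, and in the rd10 retinas to 3786 and 3151 at P15, 2736 and 2896 at P18 and 4290 and 4127 at P21. Glul made up 63.8% to 71.8% of this sum. The other 5 summed to 979 and 1098 CPM in the WT retinas. In the rd10 retinas they summed to 1216 and 987 at P15, 922 and 1049 at P18, and 1375 and 1243 at P21. Without Glul the WT and P18 retinas overlapped. Per kb of exon Ednrb exceeded Ednra in every retina, and Ednra made up 15.6% to 38.6% of the receptor level.

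Set against the receptors per kb, the summed ligands were 1.31 and 2.06 times the summed receptors in WT P15 and 0.606 and 0.585 times in rd10 P15. At P18 the ratio was 9.995 and 11.5, and at P21 it was 7.91 and 4.72. The groups followed the order of Edn2, whose values chose the family, so these ratios are a description. Edn2 carried most of the ligand level at the later ages. The receptor sum differed too, with 2.17 and 2.35 CPM per kb in WT P15 and 3.26 and 3.04 in rd10 P15. It was 2.55 and 1.78 at P18, and 2.54 and 3.40 at P21.

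Ece1 (ENSMUSG00000057530, chr4:137862237-137965229, plus strand), the main converting enzyme, had 65.6 and 67.8 CPM in the WT retinas, 76.3 and 72.7 in the rd10 retinas at P15, 58.2 and 82.9 at P18, and 91.9 and 87.0 at P21. Both P21 retinas lay above all others. The log2 difference from WT P15 was 0.42 ± 0.17 at P21 (edgeR, adjusted p 0.39, unadjusted p 0.038), 0.16 ± 0.17 at P15 (adjusted p 0.79) and 0.08 ± 0.17 at P18 (adjusted p 0.86). The P18 mean hides replicates on either side of every WT and rd10 P15 value. With rd10 P18 replicate 2 left out, the log2 difference between P21 and P18 went from 0.34 to 0.62, below the fold that a call requires. The P18 group was then 1 library.

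Ece2 (ENSMUSG00000022842, chr16:20629828-20646485, plus strand), a related protease of neurons, had 44.2 and 48.2 CPM in the WT retinas, 39.5 and 32.4 in the rd10 retinas at P15, 41.8 and 41.1 at P18, and 49.4 and 48.4 at P21. It was lowest at rd10 P15, by a log2 difference of -0.36 ± 0.15 from WT P15 (edgeR, adjusted p 0.37, unadjusted p 0.040). Between rd10 P15 and P21 it differed by 0.45 ± 0.15 (adjusted p 0.27), the replicates not overlapping. Ece1 made up 57.3% to 68.4% of the summed enzyme level per kb. A read-through gene on the same strand, Gm49333, shares 2937 exon bases with Ece2, so that the counting could split reads between them. It was at 2.54 CPM in rd10 P21 replicate 1, at 0.04 CPM in rd10 P15 replicate 2 and at 0 in the other 6 libraries. The genes that overlap other members on the opposite strand, Gm47118 at Edn1, 4933431K23Rik at Ednra and Gm13012 at Ece1, had 0 counts in all 8 libraries.

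**Figure D4:**
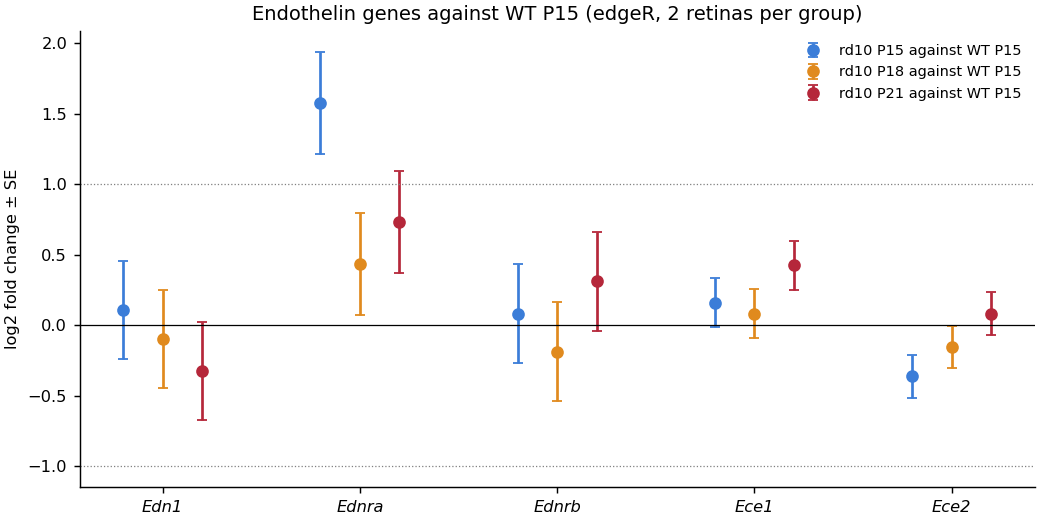
Log2 fold change against WT P15 with its SE for 5 members (edgeR, 2 libraries per group; dotted lines, the fold a call requires). Ednra in rd10 P15 stands at 1.57 and all other values lie between -0.36 and 0.73. Edn2, which chose the family, and Edn3, with 0 to 26 counts, are not drawn.

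Counted over the 6 members with a test, edgeR called 0 in every comparison at adjusted p under 0.05 and a log2 fold change beyond 1. Of all genes it called 0.230% at P15, 1.48% at P18 and 0.386% at P21 in rd10 against WT. Against rd10 P15 it called 0.591% at P18 and 0.401% at P21, and between P21 and P18 it called 0.0196%. At an unadjusted p under 0.05 the members numbered 2, 0 and 1 in the 3 comparisons with WT P15 in that order, 1 and 2 in P18 and P21 against rd10 P15, and 0 in P21 against P18. Over all genes this cutoff was passed by 12.3%, 17.4% and 11.8% in the comparisons with WT, 12.9% and 12.8% in those with rd10 P15, and 10.8% between P21 and P18. DESeq2 called 1 member, Ednra, in rd10 P15 against WT P15, where it called 2.12% of all genes. It called 0 members in the other 5 comparisons, where it called 4.74% of all genes at P18 and 2.76% at P21 against WT, 2.99% and 2.60% at these ages against rd10 P15, and 0.600% between P21 and P18. In rd10 P15 against WT P15, 3 of the 6 members did not overlap between the groups, beside 49.7% of all genes. The count was 1 of 6 at P18 (47.0% of all genes) and 4 of 6 at P21 (49.2%). Against rd10 P15 it was 2 of 6 at P18 (42.3%) and 4 of 6 at P21 (51.5%), and between P21 and P18 it was 2 of 6 (43.0%). With Edn3 set aside, the median log2 difference of the other 5 was 0.11 at P15, -0.10 at P18 and 0.31 at P21, beside medians over all genes of -0.01, 0.01 and 0.00. With 2 libraries per group an exact permutation test cannot go below a p of 0.333.

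Genes of stress and survival signalling that are known alongside Edn2 in the damaged retina moved in P18 and P21 retinas. This list and the gene lists below were chosen with earlier results of these data known. Their counts of calls beside those of all genes are therefore a description. Of 15 such genes, 5 were called higher in rd10 P18 against WT P15 (1.15% of all genes were called higher) and 3 in rd10 P21 (0.244%), and 0 were called lower (0.332% and 0.142% of all genes). Against rd10 P15, 4 were called higher at P18 (0.523%) and 3 at P21 (0.298%). Between rd10 P15 and WT P15, edgeR called 0 of 15 (0.137% of all genes higher, 0.0929% lower), DESeq2 called 0, and 1 had an unadjusted p under 0.05 (12.3% of all genes). DESeq2 called 6 higher at P18 against WT (Lif beside the 5 of edgeR; 4.74% of all genes in either direction) and 5 at P21 (Cntf and Socs3 beside the 3 of edgeR; 2.76%), and 0 lower. The median log2 difference of the list was -0.22 at P15, 0.91 at P18 and 0.83 at P21.

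Gfap, the intermediate filament of reactive glia, had the highest level of the called genes at P18. It had 27.3 and 43.0 CPM in the WT retinas, 28.1 and 25.03 in the rd10 retinas at P15, 363 and 399 at P18, and 126 and 120 at P21. The log2 fold change against WT P15 was 3.44 ± 0.22 at P18 (edgeR, adjusted p 0.000745) and 1.81 ± 0.21 at P21 (adjusted p 0.029). Both P21 values of Gfap lay below both P18 values, as did those of Edn2, where the ratios of P21 to P18 were 0.623 to 0.981.

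Stat3 and Socs3, both of the Jak and Stat route, rose as well, whereas Jak1, Jak2, Lifr and Il6st were not called. Jak1 had 201 and 180 CPM in the WT retinas, 162 and 193 at P18, and 191 and 178 at P21. Jak2 had 60.6 and 52.6 CPM in the WT retinas, 54.2 and 52.5 at P18, and 49.4 and 54.8 at P21. Lifr had group means of 112 CPM in WT P15, 88.4 at P18 and 87.4 at P21. Il6st had 138 and 157 CPM in the WT retinas, 134 and 216 at P18, and 205 and 188 at P21. Its P18 values thus lay on either side of WT and both P21 values above. Jak1, Jak2, Lifr and Il6st are named after their values were seen. Stat3, the transcription factor downstream of gp130 receptors, had 70.8 and 72.7 CPM in the WT retinas, 61.0 and 62.1 in the rd10 retinas at P15, 194 and 205 at P18, and 154 and 168 at P21. Its log2 fold change was 1.47 ± 0.12 at P18 (edgeR, adjusted p 0.0027) and 1.16 ± 0.12 at P21 (adjusted p 0.023). Socs3, a feedback inhibitor of that route, had 3.58 and 3.17 CPM in the WT retinas, 1.94 and 1.48 in the rd10 retinas at P15, 51.6 and 42.7 at P18, and 12.3 and 7.83 at P21. It rose by a log2 fold change of 3.80 ± 0.29 at P18, and at P21 the value was 1.58 ± 0.27 (edgeR, adjusted p 0.064). Socs3 and Stat3, like Edn2, were lower in both rd10 P15 retinas than in both WT retinas, though neither difference passed the test (log2 differences -0.98 and -0.22, edgeR adjusted p 0.21 and 0.52).

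Among the cytokines and their receptors, Osmr, the oncostatin M receptor, had 6.06 and 10.5 CPM in the WT retinas and 42.1 and 44.2 in the P18 retinas, a log2 fold change of 2.38 ± 0.26 (edgeR, adjusted p 0.0079), and 28.04 and 27.4 CPM at P21, a log2 fold change of 1.74 ± 0.26 (adjusted p 0.043). Cntf, a neurotrophic cytokine, had 2.59 and 3.72 CPM in the WT retinas, 15.5 and 12.2 in the P18 retinas and 10.4 and 6.26 in the P21 retinas, and rose at P18 by 2.13 ± 0.37 (adjusted p 0.035). Lif, the cytokine that is known to stand upstream of Edn2 in photoreceptor injury, had 0.52 and 1.23 CPM in the WT retinas, 0.60 and 0.11 in the rd10 retinas at P15, 4.92 and 9.14 at P18, and 1.71 and 2.24 at P21. Its values did not overlap between WT P15 and P18, and the log2 difference of 3.0 had an edgeR adjusted p of 0.093, while DESeq2 called it. Fgf2, a photoreceptor survival factor, which is named here after its values were seen, had 29.5 and 30.8 CPM in the WT retinas, 11.8 and 15.3 in the rd10 retinas at P15, 146 and 12.9 at P18, and 135 and 140 at P21. Replicate 2 of rd10 P18 was thus at the rd10 P15 level, and Edn2 was at 28.01 CPM in that same retina.

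**Figure D5:**
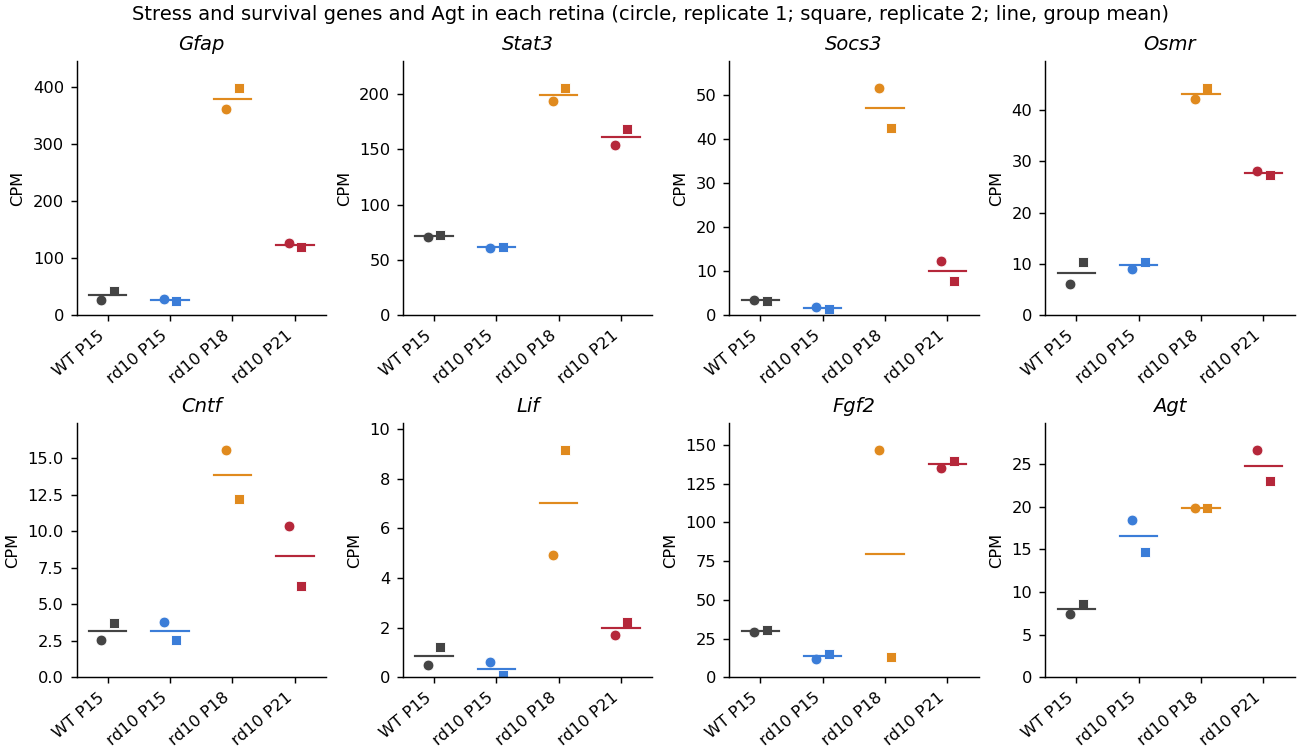
CPM in each retina for 7 genes of the stress and survival list and for Agt (circle, replicate 1; square, replicate 2; line, group mean; axes start at 0). Gfap, Stat3, Socs3, Osmr and Cntf are higher in both P18 retinas than in both WT P15 retinas, and Fgf2 at P18 is split between 146 and 12.9 CPM.

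The calls against WT P15 differed in how far they held when single libraries were left out. Those of Gfap, Stat3, Socs3 and Osmr at P18 were made in all 8 such fits, with an edgeR adjusted p of at most 0.045. The call of Cntf at P18 was lost in 5 of 8 fits (adjusted p up to 0.23), and at P21 those of Osmr and Stat3 were lost in 5 of 8 and that of Gfap in 4 of 8 (adjusted p up to 0.19, 0.16 and 0.098). Against rd10 P15, the P18 calls of Gfap, Stat3 and Socs3 were likewise made in all 8 fits. That of Osmr at P18 was lost without either rd10 P15 library (adjusted p 0.14 and 0.11), and so were the P21 calls of Gfap, Socs3 and Stat3 (adjusted p up to 0.076, 0.12 and 0.079). The libraries whose removal ended a call included both of WT P15 for Cntf and Stat3.

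The genes that act before and after the peptides gave few calls. Of the 9 tested genes for precursor processing and peptide breakdown, edgeR called 0 in the 6 comparisons (0.0196% to 1.48% of all genes). In each, 1 to 3 had an unadjusted p under 0.05 (10.8% to 17.4% of all genes). DESeq2 called Ecel1 in 4 comparisons (0.600% to 4.74% of all genes) and Mme, an endothelin-degrading protease, in 1 (2.76%). Mme had 1.52 and 0.94 CPM in the WT retinas and 4.25 and 3.85 in the P21 retinas (edgeR, adjusted p 0.17). Furin, a convertase of the precursors, ranged from 66.0 to 81.7 CPM over the 8 retinas. Ecel1, a damage-induced neuronal protease of the converting enzyme family, was at 0 counts in both WT P15 and both rd10 P21 retinas. The rd10 retinas had 0.60 and 0.67 CPM at P15, and 1.64 and 1.42 CPM at P18, where the mean was at least 29.5-fold higher than the floor of 3 counts over the WT group. The edgeR adjusted p was 0.072 at P18, and DESeq2 gave an adjusted p of 0.00097. Phex, another metalloprotease of that family, had 0.85 and 0.91 CPM in the WT retinas and 0.72 and 0.38 in the P18 retinas (edgeR, adjusted p 0.87).

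Of the 26 genes of receptor signalling, edgeR called 0 in the 6 comparisons (0.0196% to 1.48% of all genes). In each, 1 to 7 had an unadjusted p under 0.05 (7 of 26 at P18 against WT P15, beside 17.4% of all genes). DESeq2 called Prkcd at P18 and P21 against WT P15 (4.74% and 2.76% of all genes). The medians were 0.14, 0.16 and 0.18 against WT P15 at P15, P18 and P21 beside the medians over all genes given above. Prkcd, a protein kinase C isoform, had 7.95 and 8.51 CPM in the WT retinas, 18.9 and 17.9 in the P18 retinas and 19.7 and 15.2 in the P21 retinas, with a log2 difference of 1.16 ± 0.28 at P18 (edgeR, adjusted p 0.087). Arrb2, an arrestin that ends receptor signalling, had 17.6 and 23.9 CPM in the WT retinas and 37.5 and 31.7 in the P18 retinas, a log2 difference of 0.74 ± 0.24 (adjusted p 0.17). Gnaq and Gna11 are the G proteins that couple the receptors to phospholipase C. Gnaq lay between 72.1 and 110 CPM in all retinas. Gna11 had group means of 78.4 CPM in WT P15 and 80.7, 75.4 and 76.7 CPM in rd10 at P15, P18 and P21.

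Of the 10 tested transcription factors known to act on endothelin genes, edgeR called 0 in the 6 comparisons (0.0196% to 1.48% of all genes). In each, 1 to 4 had an unadjusted p under 0.05 (4 of 10 at P18 against WT P15, beside 17.4% of all genes). DESeq2 called Fos at P18 against WT P15 (4.74% of all genes). The medians were 0.00, 0.14 and 0.19 against WT P15 at P15, P18 and P21. Hif1a, an oxygen-regulated factor known to bind hypoxia response elements, was at 861 and 739 CPM in the WT retinas and at 686 and 712 in the P18 retinas (log2 difference -0.19, edgeR adjusted p 0.50). Its binding at the letters printed above was not measured. Fos, a subunit of AP-1, had 39.9 and 56.8 CPM in the WT retinas and 104 and 91.9 in the P18 retinas, a log2 difference of 1.01 ± 0.25 (adjusted p 0.088). Its partner Jun had 58.5 and 62.2 CPM in the WT retinas and 111 and 106 in the P18 retinas, a log2 difference of 0.85 that passed the p threshold (edgeR, adjusted p 0.022) and not the fold. Gata2, a factor of endothelium, had 0.92 and 0.81 CPM in the WT retinas and 0.89 and 2.46 in the P18 retinas.

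Among 10 other vasoactive peptide and nitric oxide genes, edgeR called 1 higher than in WT P15 at P18 (1.15% of all genes) and the same 1 at P21 (0.244%), and 0 lower (0.332% and 0.142%). This was Agt, the angiotensin precursor, with 7.39 and 8.61 CPM in the WT retinas, 18.4 and 14.7 in the rd10 retinas at P15, 19.9 and 19.8 at P18, and 26.6 and 23.0 at P21. Agt rose by log2 fold changes of 1.31 ± 0.20 at P18 and 1.63 ± 0.20 at P21 (edgeR, adjusted p 0.028 and 0.033), and in rd10 P15 the value was 1.05 ± 0.20 (adjusted p 0.074). With WT P15 replicate 1 left out the adjusted p was 0.19 at P18 and 0.20 at P21, and with WT P15 replicate 2 left out it was 0.10 and 0.085. At P21 the call was lost in 5 of the 8 fits without 1 library, and at P18 in these 2. DESeq2 called Agt at rd10 P15 too (2.12% of all genes in either direction). It called Calca, the precursor of calcitonin gene-related peptide, at P18 (4.74%) and Adm, the adrenomedullin precursor, at P21 (2.76%). The list medians were 0.25, 0.20 and 0.10. The natriuretic peptide Nppb stayed at or below 0.91 CPM in all retinas.

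The genes whose profile over the 8 libraries was nearest to that of Edn2 were found by the root mean square difference of log2 CPM centred on each gene's mean. The nearest was Fgf2os (0.44), a transcript antisense to Fgf2, which had 0.96 and 1.81 CPM in the WT retinas, 0 in both rd10 retinas of P15, 8.44 and 8.19 at P18, and 9.76 and 12.4 at P21. Fgf2os and Fgf2 share 0 exon bases in GENCODE M21, and the low Fgf2 value of rd10 P18 replicate 2 had no counterpart in Fgf2os. Next came Lad1 (0.66), a basement membrane anchor protein, C4b (0.77), a complement component, Clec7a (0.88), a myeloid lectin receptor, and H2-Q4 (1.05), an MHC class I gene. C4b had 3.18 and 9.29 CPM in the WT retinas, 1.05 and 0.78 in the rd10 retinas at P15, 111 and 87.1 at P18, and 292 and 117 at P21. The 6 microglia markers summed to 61.3 and 63.3 CPM in the WT retinas, 82.8 and 80.6 in the rd10 retinas at P15, 150 and 170 at P18, and 224 and 135 at P21, an order that differs from Edn2 in that rd10 P15 lay above WT P15. The nearest profiles to Ednrb were those of Lrrc73 (0.14), Frat1 (0.17), Arhgef3 (0.17), Gm9800 (0.17) and Sfn (0.17), which, like Ednrb, were lowest in rd10 P18 replicate 2. The likeness is a description over 8 libraries.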

How the data were processed

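Whole-retina poly(A) RNA was sequenced by the authors from 2 samples per group. The deposited table holds raw read counts per Ensembl identifier, not normalized. The submitters' processing notes name HISAT2 as aligner. The counting tool, its strand setting, the genome build and the annotation were not given in the sources used here. From GENCODE M21 (GRCm38) came symbols, positions and exon lengths, naming 52029 of the 57010 identifiers, and upstream sequence from RefSeq.

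Counts were tested with edgeR 4.0.16 (R 4.3.3): filterByExpr (minimum count 10, minimum total count 15), TMM, and the robust quasi-likelihood fit over all 8 libraries without a block. P-values were adjusted by Benjamini-Hochberg over 20457 genes, and a gene was called, as in the study, when its adjusted p was under 0.05 and its log2 fold change beyond 1 in size. DESeq2 1.42.0 was an alternative, beside another scaling, no filter, the compared libraries alone, a replicate block, a sex term and leaving out each library. The standard error is the fold change over the square root of F. Profiles used log2 CPM with a prior count of 2. Both edgeR and DESeq2 were also run on simulated counts in which each gene had the same spread in every group. That run does not cover the wider gap between the rd10 P18 libraries.

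All 7 members were named. From each gene list every called gene was named and, where fewer than 2 were called, the largest changes at P18 up to 2 genes, beside the 5 nearest profiles of Edn2 and Ednrb. Furin, Mme, Hif1a, Jun, Jak1, Jak2, Lifr, Il6st, Calca, Adm, Gnaq, Gna11, Lif and Fgf2 were added after their values were seen. The members and lists were chosen with earlier results of these data known. Kel, Cma1 and Gata4 did not pass the filter.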

Additional observations from a re-analysis of the deposited data

Results flagged for a closer look

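Edn2 lay on opposite sides of WT P15 in rd10 P15 and in the later rd10 groups, with log2 differences of -4.21 at P15, 3.30 at P18 and 2.95 at P21, every library of the groups lying on that side. The difference between the ages was not tested, since these values chose the family.

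Ece2 was below WT P15 in both rd10 P15 libraries (log2 difference -0.36) and in both rd10 P18 libraries (-0.16) and above it in both rd10 P21 libraries (0.082). Its difference between P21 and P15 within rd10 had an edgeR adjusted p of 0.27. Socs3 was below WT P15 at rd10 P15 (-0.98) and above it at P18 (3.80) and P21 (1.58), and within rd10 it was called higher at both later ages against P15. Stat3 was below at rd10 P15 (-0.22) and above at P18 (1.47) and P21 (1.16), and within rd10 it too was called higher at both later ages. The P21 calls of Socs3 and Stat3 within rd10 were lost without either rd10 P15 library (edgeR adjusted p up to 0.12 and 0.079). These comparisons share the WT P15 libraries.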

How the results depend on the processing

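With 2 libraries per group each call rests on few retinas, Edn2 at rd10 P15 rests on 10 counts, and Edn3 on 0 to 26 counts per library. The count of called members in rd10 P15 against WT P15 was 0 by edgeR and 1 by DESeq2 (Ednra), and with 1 library left out it was 0 or 1. In the other 5 comparisons it was 0 in all settings run. Where a group was left with 1 library, that library is assumed to vary like the others. The replicate numbers did not pair the retinas, with correlations of -0.025 to 0.059 between same-numbered libraries. A replicate block left the member counts at 0 and all gene calls at 16, 232, 18, 118, 66 and 6, against 47, 303, 79, 121, 82 and 4 without it (P15, P18 and P21 against WT P15, P18 and P21 against rd10 P15, P21 against P18).

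In the same order, all gene calls were 429, 957, 573, 604, 526 and 118 by DESeq2, 144, 383, 160, 173, 125 and 19 without the filter, 206, 143, 129, 74, 182 and 2 with the 4 libraries compared alone, and 4, 191, 36, 275, 156 and 12 with a sex term. With 1 library left out they spanned 6 to 246, 39 to 1250, 4 to 210, 16 to 977, 10 to 217 and 3 to 963, the highest P18 counts coming without replicate 2 of rd10 P18. Library size as the only scaling shifted the median log2 difference of all genes to 0.13 (P18) and 0.11 (P21) when compared with WT.

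Some calls of other genes against WT P15 were lost by edgeR in further settings. With the sex term the adjusted p was 0.064 for Cntf at P18, 0.055 and 0.063 for Agt at P18 and P21, and 0.082 for Osmr at P21. With the compared libraries alone it was 0.060 for Cntf and 0.087 for Agt at P18 and 0.053 for Osmr at P21, and with the block 0.058 for both Osmr and Agt at P21. The block changed no other call of the named genes.

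Differences of members near 0 changed sign, none of them called. Edn1 became -0.088 at P15 with the sex term and 0.030 at P18 with library size alone, and Ednrb -0.086 at P15 with the sex term. Edn3 became -0.76 at P18 against WT P15 and 0.035 at P21 against P18 with the sex term. With 1 library left out, the ranges against WT P15 were -0.0061 to 0.18 for Ednrb at P15, -0.34 to 0.11 for Edn1, -0.73 to 0.20 for Ednrb and -0.20 to 0.31 for Ece1 at P18. Against rd10 P15 they were -0.45 to 0.0023 for Edn1, -0.81 to 0.12 for Ednrb and -0.36 to 0.15 for Ece1 at P18, and -0.083 to 0.49 for Ednrb at P21. Between P21 and P18 they were -0.44 to 0.016 for Edn1 and -0.0091 to 0.69 for Ednra. The fitted values of Edn3 spanned -6.05 to 3.25, -6.01 to 6.60 and -2.11 to 5.54 at P15, P18 and P21 with WT as control, -3.23 to 6.61 at P18 against rd10 P15 and -2.68 to 5.52 between P21 and P18, which depend on a prior count and are no folds. The Edn2 values kept their directions in all settings run. The cause of the changes was not tested.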
